A study of Mus musculus with 4 samples.

Results

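The comparison described here is the response of control macrophages loaded with hemin to lipopolysaccharide (LPS), the cell wall lipid of Gram-negative bacteria. It sets 1 library of control (Spic+/+) cells given LPS at 100 ng/ml for 4 h beside 1 library of the same genotype kept without LPS. A gene was a member when it reached 5 FPKM (fragments per kilobase of transcript, corrected for the depth of each library) in 1 of the 2 libraries, and 8050 of 23284 genes did. The cells were macrophages grown in culture from mouse bone marrow, and both libraries came from cells that had first been given hemin, the oxidised form of heme, for 18 h. The treatment protocol gives the hemin dose as 40 µM, while the sample descriptions write the same number with mM. No culture without hemin was among the libraries, so every value below belongs to cells given hemin. The remaining 2 libraries were Spic−/− cells, titled as a conditional knockout without a named allele or Cre, with hemin and with or without the same LPS dose, and they serve here only as a second pair of libraries. Spic is the gene of Spi-C, a transcription factor of red pulp macrophages from the Ets family. With 1 library a side, no gene had a replicate, so no test, standard error or p-value can be given, and "higher" and "lower" below mean at least 2-fold apart in these libraries.

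LPS is handed by the serum protein LBP and by CD14 to a complex of Toll-like receptor 4 (TLR4) and MD-2 on the macrophage surface. From there the adaptors MyD88 and TIRAP start kinases that free NF-kB from its inhibitors and activate MAP kinases and AP-1, whereas TRAM and TRIF, working from endosomes, start the kinases that activate IRF3 and the gene of interferon beta. Secreted interferon then acts back on the cell through STAT factors and IRF9. Macrophages are known for answering in waves: genes with ready promoters come first, genes that need new proteins or chromatin remodelling follow, and inhibitors made in the first wave restrain the response.

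A gene was called higher or lower from the log2 ratio of (FPKM + 1), with LPS over without LPS, at 1 or more or −1 or less. Ratios below are on that scale, which understates differences of low genes. A gene under 1 FPKM in 1 library could pass only through the other library, which fixed its call beforehand. Spacing of low FPKM values put 1 FPKM at about 15.6 fragments per kilobase without LPS and 10.6 with LPS, so that a 2 kb transcript at 5 FPKM rested on about 140 and 95 fragments. Ranges given as counting intervals are exact 95% intervals (Clopper-Pearson) of the ratio of FPKM and cover counting error only. The summed FPKM was 500123 without LPS and 736818 with LPS, and the authors' scaling between libraries is not stated in the labels. After upper-quartile scaling, the median log2 ratio of all genes moved from 0.11 to −0.28, a shift of −0.39, and after scaling both libraries to the same sum it moved to −0.45, a shift of −0.56. Members whose deposited ratios were positive but smaller than such a shift took the other sign. Spic itself was at 53.1 FPKM without and 406 with LPS in control cells, against 15 and 80.8 FPKM in the knockout pair.

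Macrophage genes filled both libraries. Of 17 macrophage markers found in the files, 16 passed the minimum, with a summed level of 11251 FPKM without LPS and 13707 with LPS. Lyz2, which encodes lysozyme, was at 6340.4 FPKM without and 5620.4 with LPS, the receptor chain gene Tyrobp at 1937 FPKM without and 1661 with LPS, and Emr1, the gene of F4/80, at 439 FPKM without and 644 with LPS. No marker of dendritic cells (8 in the files), B cells (8), T and NK cells (10), red cell precursors (9) or mast cells (8) passed, and the mast cell markers were all listed at 0. Of 10 neutrophil markers 2 passed: the collagenase gene Mmp8 at 27.9 FPKM without and 22.6 with LPS, and Csf3r, the receptor gene of G-CSF, at 10.5 FPKM without and 30.8 with LPS, a ratio of 1.47. Stromal markers were present: 11 of 15 passed, with summed levels of 770.5 FPKM without LPS and 794.6 with LPS, among them Acta2, smooth muscle actin, at 237 FPKM without and 243 with LPS and Col1a1, type I collagen, at 84.0 FPKM without and 92.6 with LPS. Their median ratio of 0.04 (negative after upper-quartile and equal-sum scaling) lay close to the 0.11 of all genes, and their part in any result below was not tested.

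With LPS, 992 of the 8050 genes were higher, which is 12.3% of those compared, and 523, or 6.50%, were lower. Leaving out 531 small RNA genes, unnamed features and pseudogenes, 915 of 7519 genes were higher, 460 were lower and 6144 were neither. The 2 directions differed in depth. Among the named higher genes, 532 had ratios from 1 to 2, 295 from 2 to 4, 65 from 4 to 6 and 23 of 6 or more, whereas the lower genes had 388 from −1 to −2, 72 beyond −2 and none beyond −4. The balance between directions depended on scaling: higher genes were 65.5% of calls as deposited, 65.8% with median-ratio scaling, 37.4% with upper-quartile scaling and 26.5% with equal sums. As deposited, 424 genes, 5.27% of all, were at least 4-fold higher.

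**Figure D1:**
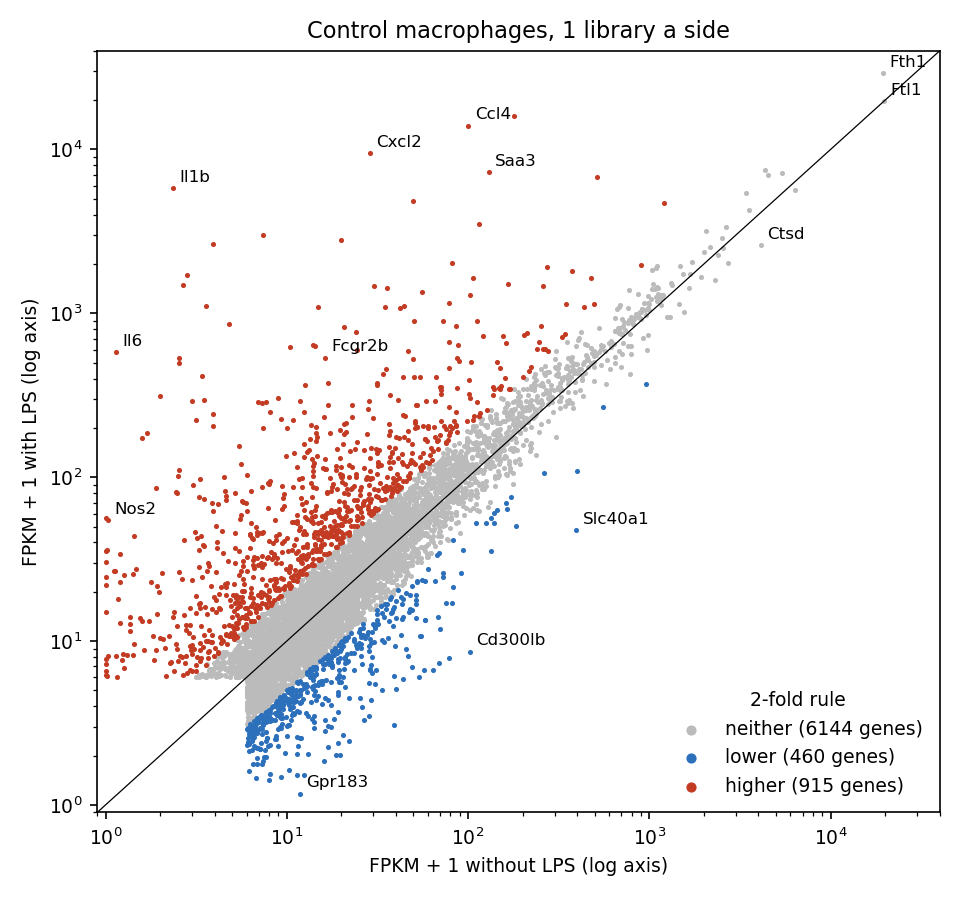
FPKM + 1 of 7519 named genes in control macrophages without LPS (x axis) and with LPS (y axis), both on log axes, 1 library a side. Each point is a gene, coloured by the 2-fold rule (915 higher, 460 lower, 6144 neither), and the line marks equal values. Points above the line reach a ratio of 11.25 at Il1b and points below it −3.67 at Arl11.

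The higher genes started from all levels. The named ones had a median of 12.1 FPKM without LPS and 53.1 with LPS. Without LPS, 51 of them were under 1 FPKM, 350 from 1 to 10, 461 from 10 to 100 and 53 over 100. No other named gene compared was under 1 FPKM without LPS, because the minimum and the 2-fold rule made any such gene higher. The medians over all named genes were 16.2 FPKM without LPS and 18.2 with LPS. Together the higher genes made up 5.55% of the summed FPKM without LPS and 27.9% with LPS. The lower genes went from a median of 13.6 FPKM to 4.09 and from 2.55% of the sum to 0.564%. Of the 872 named higher genes with a usable transcript length, 802 had counting intervals wholly above 2-fold, and of 436 lower ones 357 had intervals wholly below 0.5. These intervals come from the same values that made the calls, so they describe counting error and are no separate check of the calls.

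In FPKM units the gain lay in few transcripts. The chemokine genes Ccl3, at 179 FPKM without and 15889.5 with LPS, and Ccl4, at 99.5 FPKM without and 13971 with LPS, gained most. They were followed by the ferritin heavy chain gene Fth1, which went from 19563 to 29184 FPKM at a ratio of only 0.58, and by the chemokine gene Cxcl2, from 27.7 to 9510.1. Saa3, a serum amyloid A gene, went from 129 to 7279 FPKM, Ccl5 from 512 to 6739.6, Il1b from 1.37 to 5779, and Tnf from 49.0 to 4840.3. Sqstm1, which encodes the autophagy receptor p62, and Cd14 completed the 10 largest gains, at 1199 and 4683 FPKM and at 114 and 3523. Among genes that were at least 2-fold higher, the 10 largest gains held 0.463% of the summed FPKM without LPS and 10.2% with LPS. The largest losses in FPKM were mostly of abundant transcripts under 2-fold, led by the cathepsin D gene Ctsd, at 4129 FPKM without and 2606 with LPS, and 2 of the 10 were called lower: the ribosomal protein gene Rps27 (−1.38), whose value is uncertain because near-identical copies of ribosomal protein genes exist, and the iron exporter gene Slc40a1 (−3.05).

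Of 26 genes of LPS recognition and proximal signalling that passed, 10 were higher and 2 lower, with a median of 0.59 against 0.11 for all genes. Cd14, which passes LPS to the receptor, was at 114 FPKM without and 3523 with LPS (ratio 4.94). Tlr4 was at 28.5 FPKM without and 18.0 with LPS and Ly96, which encodes MD-2, at 56.3 FPKM without and 80.8 with LPS, both under 2-fold. Next to Cd14 the highest were Peli1 (3.76), a ubiquitin ligase of the pathway, Irak3 (2.86), the kinase-like inhibitor IRAK-M, and Irak2 (2.34), a kinase that sustains the signal. Both adaptor genes of the TRIF arm were higher, Ticam1 (1.03) and the TRAM gene Ticam2, at 4.06 FPKM without and 18.1 with LPS, as was Myd88, at 47.2 FPKM without and 126 with LPS. The lower genes were Tab1 (−1.02), an adaptor of the kinase TAK1, and Cd180, the gene of the TLR4 relative RP105, at 172 FPKM without and 74.2 with LPS, and after upper-quartile scaling the list had 8 higher and 3 lower.

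Of 20 other sensors of microbes that passed, 10 were higher and 1 lower, at a median of 1.05. Clec4e, the gene of the glycolipid receptor Mincle, was at 29.4 FPKM without and 1466 with LPS, a ratio of 5.59. The RNA sensor gene Ifih1 (3.68), the peptidoglycan sensor gene Nod2 (3.12) and the lipopeptide receptor gene Tlr2 (2.96) were next. In the other direction, Tlr13, a sensor of bacterial ribosomal RNA, was at 182 FPKM without and 49.0 with LPS, a ratio of −1.87. Clec4d, a relative of Clec4e, was the most abundant of these genes, at 1037 FPKM without and 1829 with LPS, and was under 2-fold.

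Among 15 inflammasome genes 5 were higher and 1 lower, and the median of 0.85 became negative after upper-quartile and equal-sum scaling. Nlrp3, the sensor that is low until a first signal arrives, was at 21.9 FPKM without and 274 with LPS (3.58). Mefv, which encodes pyrin, was at 5.37 FPKM without and 51.5 with LPS and Casp4, which encodes the intracellular LPS receptor caspase 11, at 26.5 FPKM without and 182 with LPS. By contrast the adaptor gene Pycard was at 22.2 FPKM without and 14 with LPS, under 2-fold.

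Nearly all NF-kB genes were higher. Of 16 subunit and inhibitor genes, all of which passed, 15 were higher and none lower, with a median of 3.08, and 14 and 12 were higher after upper-quartile and equal-sum scaling. Both precursor subunits were higher, with Nfkb1 at 20.2 FPKM without and 187 with LPS and Nfkb2 at 27.4 FPKM without and 292 with LPS, as was Rel, at 4.68 FPKM without and 70.6 with LPS. Inhibitors had the 2 highest levels of the list with LPS: Nfkbia, the gene of IkB alpha, was at 106 FPKM without and 1633 with LPS, and Tnfaip3, the gene of the ubiquitin editor A20, at 13.3 FPKM without and 635 with LPS, a ratio of 5.48 (counting interval on the FPKM ratio, 44.7 to 51.2). Nfkbiz, a nuclear member of the family that works as a coactivator, was at 5.90 FPKM without and 288 with LPS. Only Cyld, a deubiquitinase gene of the pathway, stayed under 2-fold, at 5.75 FPKM without and 7.63 with LPS.

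Tnfaip3 lies on chromosome 10 from 19000910 to 19015657 on the minus strand (GRCm38). Its promoter is shown because it is the highest gene of this list. The sequence is that of RefSeq for GRCm38.p6 (chr10:19015411-19015660, minus strand), the 250 bases before the first of 2 listed starts, in the direction of transcription. Nearly all of this window lies inside the gene limits given above, which come from another annotation, and the other start is not shown. Capitals mark matches, on either strand, to the NF-kB consensus, the AP-1 motif TGANTCA or TATAAA.
Tnfaip3: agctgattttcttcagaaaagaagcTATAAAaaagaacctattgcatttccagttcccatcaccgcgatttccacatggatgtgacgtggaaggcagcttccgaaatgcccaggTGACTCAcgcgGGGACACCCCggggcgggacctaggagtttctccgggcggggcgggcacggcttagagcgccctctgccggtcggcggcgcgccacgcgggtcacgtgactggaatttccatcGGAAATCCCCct
It held the NF-kB consensus at bases −125 to −116 and at −12 to −3 counted from the start, with TGACTCA at −136 to −130 beside the former, and TATAAA at −225 to −220. A match describes letters in the window and not a bound factor.

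AP-1, ATF, C/EBP and Maf genes were found on both sides. Of 23 that passed, 10 were higher and 5 lower, with a median of 0.74. Those higher were the AP-1 genes Batf, at 6.34 FPKM without and 85.8 with LPS, Batf2, at 5.28 FPKM without and 43.5 with LPS, Fosl1, Fosl2, Junb and Jdp2, the small Maf gene Maff (3.37), the repressor gene Nfil3 (3.40), and Cebpd and Cebpb, the C/EBP genes of the acute response. Junb was the most abundant, at 88.5 FPKM without and 510.3 with LPS. The founding AP-1 genes were lower at this time: Fos was at 71.6 FPKM without and 23.8 with LPS (−1.55) and Jun at 39.2 FPKM without and 12.9 with LPS (−1.53). Lower as well were Cebpa (−1.44), the C/EBP gene of myeloid differentiation, and Maf (−1.18). These calls were the same after upper-quartile scaling in number, 10 higher and 5 lower.

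Other inducible regulators were mostly higher, in 18 of 29 cases with 4 lower, at a median of 1.49. Ier3, an immediate early gene, was at 45.4 FPKM without and 586 with LPS, Klf6 at 99.6 FPKM without and 392 with LPS, and Egr1, an early zinc finger factor, at 0.983 FPKM without and 19 with LPS. The lower ones were Klf2, Id1, Myc and Klf10, with Myc at 13.8 FPKM without and 3.62 with LPS (−1.68) and Klf10 at 15.9 FPKM without and 3.36 with LPS (−1.96).

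Lineage factors of macrophages had 6 higher and 6 lower of 22 as deposited, with a median of −0.02, and 5 higher and 9 lower after upper-quartile scaling. The MiT family of lysosome and autophagy regulators went both ways within 1 family: Tfec was at 17.9 FPKM without and 148 with LPS, Mitf at 17.3 FPKM without and 53.3 with LPS, Tfe3 at 49.8 FPKM without and 52.4 with LPS, and Tfeb at 16.6 FPKM without and 3.07 with LPS. Tfec and Mitf were thus higher, Tfeb lower and Tfe3 neither, also after upper-quartile scaling. Spic stood among the higher factors, with 53.1 FPKM without LPS and 406 with LPS (counting interval of the FPKM ratio 7.2 to 8.12), together with the Ets repressor gene Etv3 (2.10) and Nfe2l2 (1.65), the gene of NRF2. Among the lower were Rxra (−1.33), a partner of nuclear receptors, and the Ets gene Fli1 (−1.22). Pparg, a lipid-sensing partner of the Rxra product, was at 23.3 FPKM without and 12 with LPS, just under 2-fold.

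Of 13 interferon regulatory factor and STAT genes that passed, 4 were higher and none lower. The median was 0.47, and it turned negative with equal sums. Irf1 was at 27.1 FPKM without and 258 with LPS (3.21), Stat5a at 4.71 FPKM without and 29.9 with LPS, Stat2 at 19.6 FPKM without and 78.7 with LPS and Stat3 at 20.8 FPKM without and 78.1 with LPS. Irf7, the factor behind the later interferon response, was already at 259 FPKM without LPS and at 361 with LPS. Irf8 was at 47.2 FPKM without and 23.9 with LPS, just under the 2-fold limit as deposited and past it after upper-quartile scaling.

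**Figure D2:**
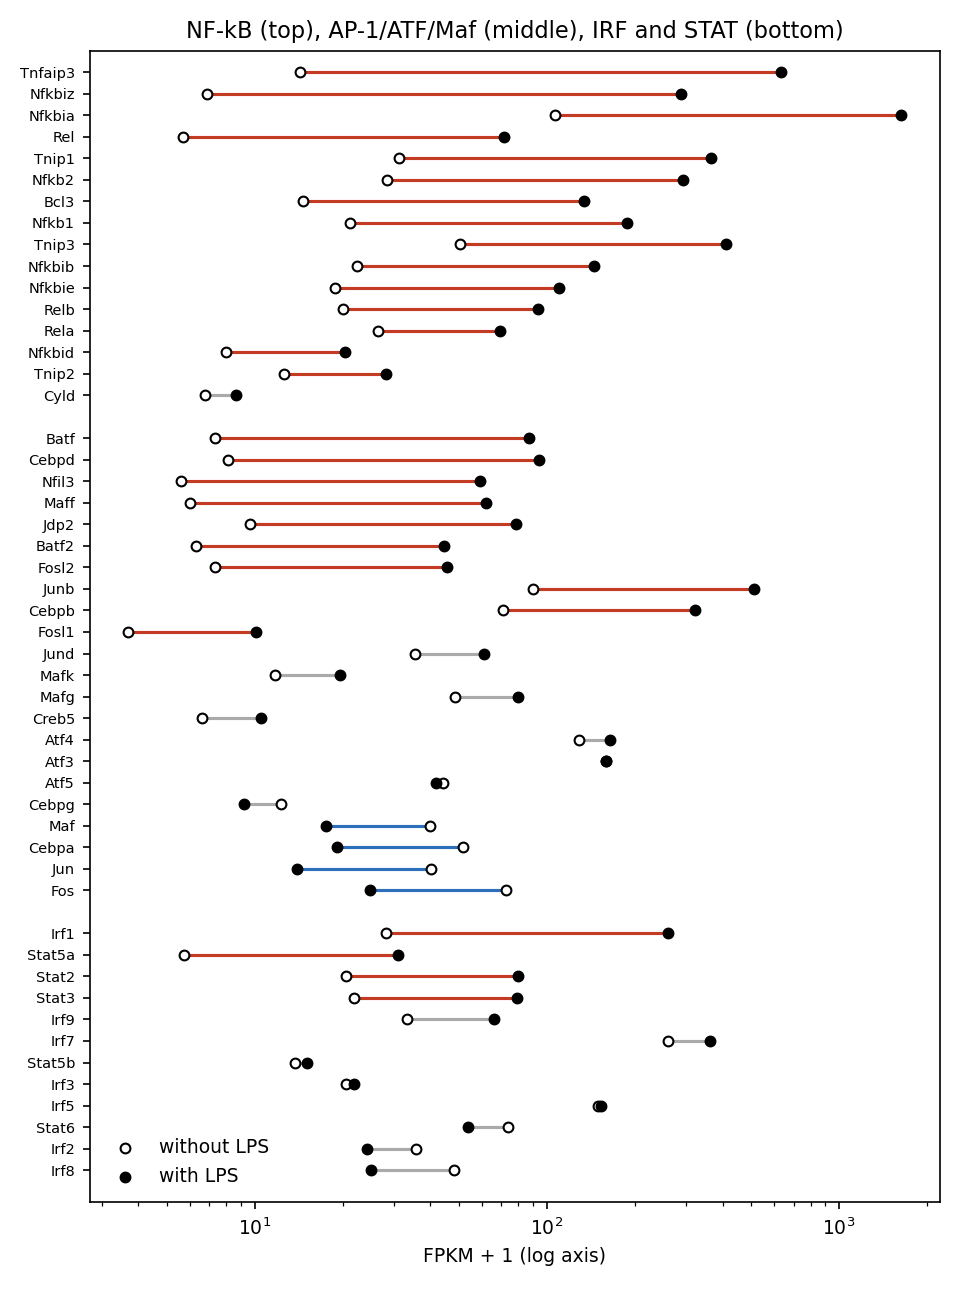
FPKM + 1 (log axis) of the NF-kB, AP-1/ATF/Maf and IRF/STAT genes shown, in control macrophages without LPS (open circles) and with LPS (filled circles), 1 library each. Red lines join genes at least 2-fold higher, blue lines genes at least 2-fold lower and grey lines the rest. The NF-kB genes all lie to the right with LPS as deposited, while the middle group holds both Batf (3.56) and Fos (−1.55).

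Inhibitors of the response were among the genes with the largest ratios. Of 13 SOCS and JAK-STAT inhibitor genes, 6 were higher and none lower (median 0.77). Socs3, which blocks the interleukin 6 receptor, was at 2.59 FPKM without and 1099.8 with LPS, a ratio of 8.26. Socs1 was at 2.02 FPKM without and 89.2 with LPS and Usp18, which removes ISG15 and restrains the interferon receptor, at 12.5 FPKM without and 169.96 with LPS. The remaining SOCS genes that passed, Socs4, Socs5 and Socs6, were at 8.0, 6.44 and 7.51 FPKM with LPS and under 2-fold. Cish was listed at 0.360 FPKM without LPS and 10.6 with LPS.

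Dual-specificity phosphatases, which switch off MAP kinases, split by member. Of 26 MAP kinase regulators 9 were higher and 3 lower, at a median of 0.78. Dusp2 was at 2.0 FPKM without and 293 with LPS (6.61), Dusp1 at 77.1 FPKM without and 663 with LPS and Dusp16 at 3.17 FPKM without and 67.2 with LPS. Dusp6, an ERK phosphatase, was at 32.6 FPKM without and 4.04 with LPS, a ratio of −2.74, and Dusp3 at 29.0 FPKM without and 11.8 with LPS. The kinase genes Map3k8, at 6.84 FPKM without and 91.1 with LPS, and Mapkapk2, at 85.0 FPKM without and 834 with LPS, were higher, and both act in the control of Tnf production. Gadd45b (3.65) and Gadd45a (2.73) were higher while Gadd45g was at 40.1 FPKM without and 19.5 with LPS, so that 1 family again held both directions.

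Of 18 factors of cytokine mRNA decay that passed, 7 were higher and 1 lower (median 0.79). Zfp36, which encodes tristetraprolin, was at 77.6 FPKM without and 1153 with LPS, and Zc3h12a, which encodes the RNase regnase 1, at 13.8 FPKM without and 176 with LPS. Zfp36l2, a paralog of Zfp36, was at 74.3 FPKM without and 16.1 with LPS, a ratio of −2.14, against 3.88 for Zfp36. Arid5a, which protects cytokine mRNA, was at 0.734 FPKM without and 12.3 with LPS.

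Interleukin 1 genes had the highest ratio of all named genes. Of 17 family and receptor genes in the files 6 passed and 11 were under the minimum, and 4 of the 6 were higher. Il1b, the gene of the secreted cytokine that inflammasomes mature, was at 1.37 FPKM without and 5779 with LPS, a ratio of 11.25 (counting interval on the FPKM ratio, 2807 to 6404). Il1a was at 1.67 FPKM without and 1487 with LPS. Il1rn, the gene of the receptor antagonist, started higher, at 33.8 FPKM, and reached 1084 (4.96). Il18, which inflammasomes also process, was at 11 FPKM without and 20.6 with LPS, under 2-fold, and its binding protein gene Il18bp at 44.2 FPKM without and 49.4 with LPS. The antagonist gene was thus more abundant than Il1b without LPS, and Il1b more abundant with LPS.

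Il1b lies on chromosome 2 from 129364570 to 129371139 on the minus strand (GRCm38). Its promoter, the 250 bases before the start from RefSeq for GRCm38.p6 (chr2:129371140-129371389, minus strand), is shown for the highest ratio among named genes, with TATAAA in capitals at −31 to −26.
Il1b: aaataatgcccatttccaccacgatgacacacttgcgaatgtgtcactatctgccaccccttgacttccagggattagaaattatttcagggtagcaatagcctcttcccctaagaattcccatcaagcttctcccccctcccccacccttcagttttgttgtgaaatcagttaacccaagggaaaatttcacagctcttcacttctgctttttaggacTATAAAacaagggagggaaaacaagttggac
No NF-kB consensus, AP-1 motif or interferon response motif lay in this window.

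Of 18 genes of the interleukin 6 and 12 family in the files 8 were under the minimum. Of the 10 that passed 8 were higher and 1 lower (median 3.11). The median was 2.31 after median-ratio scaling and 3.73 after upper-quartile scaling. Il6 was at 0.146 FPKM without and 577 with LPS, where the value without LPS rests on few fragments, so the FPKM ratio had counting limits of 1648 to 11853. Il27 was at 1.54 FPKM without and 499 with LPS and its partner subunit gene Ebi3 at 57.9 FPKM without and 290.2 with LPS. Il12b, the shared subunit of interleukins 12 and 23, and Il23a were both listed at 0 without LPS and at 55.5 and 14 FPKM with LPS. Il6, Il27, Il12b and Il23a passed only through the library with LPS and were so low without it that their calls were fixed beforehand. The receptor gene Il6ra went the other way, at 13.2 FPKM without and 1.96 with LPS (−2.26), while the signalling chain gene Il6st was at 21.7 FPKM without and 17.5 with LPS. Ligand and ligand-binding receptor of interleukin 6 therefore had opposite signs here.

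Of 19 genes of the interleukin 10 family, TGF-beta and other interleukins 10 were higher and 3 lower, at a median of 1.05. Il10, the main inhibitory cytokine of macrophages, was at 6.70 FPKM without and 285 with LPS (5.21), and its receptor gene Il10ra at 27.6 FPKM without and 89.0 with LPS. Il19 was listed at 0 without LPS and at 20.8 FPKM with LPS, and Il15 was at 11.4 FPKM without and 131 with LPS. The 3 lower genes belonged to TGF-beta signalling: Tgfb3 (−1.33) and the receptor genes Tgfbr1, at 19.2 FPKM without and 8.95 with LPS, and Tgfbr2, at 21.5 FPKM without and 10.2 with LPS, both close to the limit. Tgfb1 itself was at 89.6 FPKM without and 97.1 with LPS. After upper-quartile scaling 8 were higher and 6 lower.

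Of 33 TNF superfamily genes in the files 13 were under the minimum, and of the 20 that passed 10 were higher and 3 lower (median 0.80). Tnf was at 49.0 FPKM without and 4840.3 with LPS, Cd40 at 9.46 FPKM without and 622 with LPS, Tnfsf9, a T cell costimulator gene, at 6.32 FPKM without and 281 with LPS, and the adaptor gene Traf1 at 8.25 FPKM without and 225 with LPS. The receptor genes of TNF differed: Tnfrsf1b was at 71.8 FPKM without and 900.4 with LPS and Tnfrsf1a at 121 FPKM without and 172 with LPS. Lower genes were the death receptor gene Tnfrsf21 (−1.62) and the decoy receptor genes Tnfrsf23 (−1.04) and Tnfrsf26 (−1.99).

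Colony-stimulating factors and their receptors had 3 higher of 9, with a median of 0.25 that became negative after upper-quartile and equal-sum scaling. Csf3, the gene of G-CSF, was listed at 0 without LPS and at 29.4 FPKM with LPS, and Csf1, the macrophage growth factor gene, was at 12.7 FPKM without and 53.3 with LPS. The receptor gene Csf1r was at 319 FPKM without and 265 with LPS.

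Chemokines of both classes were among the most abundant transcripts with LPS. Of 11 CXC genes that passed 9 were higher (median 4.32), and of 13 CC genes and Cx3cl1, 11 (median 2.99), with none lower in either list as deposited and 1 CXC gene lower after upper-quartile scaling. A further 3 genes of the CXC list and 5 of the CC list were under the minimum. The summed level of the CXC genes was 545 FPKM without LPS and 17182 with LPS, and that of the CC genes 1667 and 41251. Cxcl1 was at 2.94 FPKM without and 2648 with LPS (9.40) and Cxcl2 at 27.7 FPKM without and 9510.1 with LPS, both ligands that draw neutrophils, while the T cell attractant gene Cxcl10 was at 6.38 FPKM without and 2987 with LPS. Some CC genes already had high levels without LPS, with Ccl5 at 512 FPKM, Ccl2 at 271 and Ccl9 at 259.7. Their ratios of 3.71, 2.83 and 2.50 came with final levels of 6739.6, 1927 and 1476 FPKM. Ccl20 and Ccl17 were listed at 0 without LPS and at 34.7 and 6.78 FPKM with LPS. Ccl6, at 139.6 FPKM without and 134 with LPS, and Ccl8, at 85.1 FPKM without and 82.2 with LPS, were alike in both libraries to within 2-fold.

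The Cxcl1 promoter, from RefSeq for GRCm38.p6 (chr5:90890995-90891244, plus strand), is shown because Cxcl1 had the highest ratio of the chemokines. Capitals mark overlapping matches to the NF-kB consensus at −71 to −61.
Cxcl1: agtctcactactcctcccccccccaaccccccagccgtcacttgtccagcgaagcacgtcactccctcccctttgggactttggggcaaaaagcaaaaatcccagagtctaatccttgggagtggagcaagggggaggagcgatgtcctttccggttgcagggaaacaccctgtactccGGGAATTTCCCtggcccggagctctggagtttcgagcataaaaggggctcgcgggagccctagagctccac
The gene itself lies at 90891241 to 90893115 of chromosome 5 in the GENCODE annotation.

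Receptors of chemoattractants gave 4 higher and 2 lower of 12, and their median of 0.32 turned negative after upper-quartile and equal-sum scaling. Ccrl2, a receptor that binds chemerin without signalling, was at 2.39 FPKM without and 412 with LPS (6.93). The formyl peptide receptor genes Fpr1 and Fpr2, neighbours on chromosome 17 that share sequence, were at 21.8 FPKM without and 231 with LPS and at 13.5 FPKM without and 186 with LPS. Lower were Cxcr4 (−2.49), the bone marrow retention receptor gene, and Ccr2, the receptor gene of Ccl2, at 5.60 FPKM without and 1.70 with LPS.

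Interferon genes themselves were scarce in these libraries. Of 10 interferon and receptor genes 5 passed, and Ifnb1, which encodes interferon beta, was at 0.228 FPKM without and 6.71 with LPS. The receptor chain gene Ifnar2 was at 126 FPKM without and 206 with LPS. Of 48 antiviral genes that interferon is known to drive, all of which passed, 41 were higher and none lower at a median of 2.0, and 36 and 32 were higher after upper-quartile and equal-sum scaling. Ifi205 was at 13.8 FPKM without and 1097 with LPS (6.21), the RNA-binding antiviral gene Ifit1 at 12.9 FPKM without and 636 with LPS, Oasl1 at 19.7 FPKM without and 829.5 with LPS, and Isg15, the ubiquitin-like modifier gene, at 54.4 FPKM without and 1349 with LPS. Slfn2 reached the highest level of the list, 1506 FPKM, from 164. Several of these genes (the Ifi200, Slfn and Ifit groups) are clusters of paralogs that share sequence, so the split of fragments between members is uncertain.

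The Ifi205 promoter, from RefSeq for GRCm38.p6 (chr1:174031756-174032005, minus strand), is shown as that of the highest antiviral gene. Capitals mark, on the opposite strand, the core of the interferon response element, TTTC repeated after any 2 bases, at −134 to −125.
Ifi205: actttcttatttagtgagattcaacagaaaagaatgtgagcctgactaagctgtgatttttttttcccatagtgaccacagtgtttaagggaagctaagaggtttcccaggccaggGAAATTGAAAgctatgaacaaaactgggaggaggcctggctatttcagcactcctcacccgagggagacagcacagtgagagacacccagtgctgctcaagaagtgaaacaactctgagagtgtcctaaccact
No NF-kB consensus was found in this window.

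All 14 guanylate-binding protein and immunity-related GTPase genes that passed were higher, at a median of 2.81, and 5 others in the files were under the minimum. These proteins attack the vacuoles of intracellular microbes. Gbp5 was at 1.55 FPKM without and 534 with LPS (7.72), Gbp2 at 13.4 FPKM without and 203 with LPS and Iigp1 at 3.63 FPKM without and 76.0 with LPS. Irgm1, which regulates the others, was among the more abundant without LPS, at 37.3 FPKM, and reached 139.8. Members of this family share sequence too, so their separate values are uncertain.

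Antigen presentation genes gave lower shares. Of 21 MHC class I and immunoproteasome genes 5 were higher and none lower (median 0.63), and 3 and 1 were higher after upper-quartile and equal-sum scaling. Psme2, a proteasome activator gene, was at 209 FPKM without and 760.02 with LPS and the peptide loading gene Tapbp at 82.9 FPKM without and 219 with LPS. The light chain gene B2m, the most abundant member, was at 5361 FPKM without and 7189 with LPS. Of 8 class II genes 1 was higher, near the 12.3% of all genes: H2-Ab1, at 17.3 FPKM without and 49.2 with LPS. The class II median of 0.16 turned negative after upper-quartile and equal-sum scaling.

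Genes of a list of costimulatory, checkpoint, adhesion and other surface proteins were higher in 10 of 16 cases and lower in 2 (median 2.90). Besides Cd40 these included Cd69 (5.72), Icam1, at 49.1 FPKM without and 892 with LPS, Vcam1, at 5.01 FPKM without and 102 with LPS, and the checkpoint ligand gene Cd274, which encodes PD-L1, at 30.5 FPKM without and 374 with LPS. The classical costimulators stood apart: Cd80 was at 6.26 FPKM without and 8.72 with LPS and Cd86 at 9.88 FPKM without and 12.3 with LPS, both under 2-fold. The lower genes were Havcr2, which encodes the inhibitory receptor TIM-3, at 19.9 FPKM without and 4.27 with LPS, and the checkpoint gene VISTA under an older symbol.

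Effector enzymes had some of the widest differences. Irg1, now called Acod1, which makes itaconate, was at 18.9 FPKM without and 2802 with LPS (7.13). It was the only one of 23 genes of its list to be higher, the other 22 being citric acid cycle genes under 2-fold, with a list median of 0.03 that became negative after upper-quartile and equal-sum scaling. Nos2, the inducible nitric oxide synthase gene, was at 0.0338 FPKM without and 53.8 with LPS. The value without LPS came to an estimated 2.11 fragments, so the FPKM ratio of 1589 had counting limits of 463 to 13832. Slc7a2, which imports the arginine used by that enzyme, was at 0.888 FPKM without and 85.0 with LPS, and Gch1, which makes its cofactor, at 13.3 FPKM without and 62.4 with LPS. In all 5 of 14 arginine and nitric oxide genes were higher and none lower, with a median of 0.57 that was slightly negative with equal sums. With LPS the level of Irg1 was far above that of Nos2.

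In the prostaglandin pathway the steps to prostaglandin E2 stood out. Ptgs2, the gene of cyclooxygenase 2, was at 1.82 FPKM without and 1709.8 with LPS (9.24), the terminal synthase gene Ptges at 2.14 FPKM without and 223 with LPS, and Pla2g4a, which releases arachidonic acid, at 28.2 FPKM without and 72.7 with LPS. The synthase gene of prostaglandin D2, Hpgds, was lower, at 30.7 FPKM without and 11.8 with LPS. Alox5ap, of the leukotriene branch, was the most abundant without LPS, at 429 FPKM without and 311 with LPS, under 2-fold. Of 13 genes 4 were higher and 1 lower, and the median of 0.14 became negative after upper-quartile and equal-sum scaling.

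Acute-phase and antimicrobial genes were higher in 11 of 14 cases (median 2.80). Saa3 was at 129 FPKM without and 7279 with LPS, Lcn2, which encodes the siderophore-binding lipocalin, at 2.48 FPKM without and 295 with LPS, and S100a8 at 20.2 FPKM without and 214 with LPS. S100a9, whose protein pairs with that of S100a8, was at 16.7 FPKM without and 19.9 with LPS, so the 2 partners had ratios of 3.34 and 0.24. The lysozyme genes Lyz1 and Lyz2, which share sequence, were under 2-fold.

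Of 16 complement genes 2 were higher, near the 12.3% of all genes, and none lower. C3 was at 39.1 FPKM without and 174 with LPS and Cfb at 31.1 FPKM without and 146 with LPS. Cfb belongs to the alternative pathway, to which C3 is not particular. The C1q chain gene C1qb was at 778 FPKM without and 751 with LPS, and the median of 0.05 became negative after upper-quartile and equal-sum scaling. Genes of coagulation and plasminogen activation were higher in 6 of 15 cases and lower in 2. Serpinb2, an inhibitor of plasminogen activators, was at 0.689 FPKM without and 186 with LPS (6.79), and the urokinase receptor gene Plaur at 44.0 FPKM without and 235 with LPS. The urokinase gene Plau was lower, at 68.5 FPKM without and 6.32 with LPS (−3.25). The inhibitor and the receptor were thus higher and the protease lower. Thbd, which encodes the anticoagulant thrombomodulin, was at 5.58 FPKM without and 1.59 with LPS, and F3, the tissue factor gene, at 1.5 FPKM without and 7.97 with LPS.

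Matrix proteases were higher in 5 of 18 cases and lower in none, with a median of 0.52 that was negative with equal sums. The collagenase gene Mmp13 was at 23.3 FPKM without and 599.5 with LPS and Mmp14, a membrane-bound activator, at 36.1 FPKM without and 318 with LPS. Timp1, an inhibitor, was at 42.6 FPKM without and 93.6 with LPS. Ctsl, a cysteine protease gene counted in this list, was the most abundant, at 1464 FPKM without and 1142 with LPS.

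Glycolysis and hypoxia genes were higher in 13 of 27 cases and lower in none (median 0.93), with 9 higher and 1 lower after upper-quartile scaling. Slc2a6, a sugar transporter gene, was at 6.4 FPKM without and 198 with LPS, Pfkfb3, whose product stimulates the committed step, at 9.85 FPKM without and 221 with LPS, and the glucose importer gene Slc2a1 at 40.6 FPKM without and 173 with LPS. The kinase genes of the upper pathway were higher, with Hk2 (2.05), Pfkl (1.61) and Pfkp (1.30), while the most abundant member, Aldoa, was at 1044 FPKM without and 1513 with LPS, under 2-fold. Hif1a, the oxygen-regulated factor, was at 27.3 FPKM without and 78.4 with LPS. None of 44 nuclear-encoded respiratory chain genes was higher or lower, with ratios from −0.36 to 0.65 and a median of 0.04 that became negative after upper-quartile and equal-sum scaling. A respiratory chain gene outside that list, Ndufs5, was at 0.0160 FPKM without and 34.9 with LPS, where the former value came to 0.117 estimated fragments and is uncertain. Of 31 constitutive proteasome subunits 1 was higher, Psma6 at 265 FPKM without and 604 with LPS, and all 31 were above 0 as deposited, at a median of 0.64. That median was 0.26 and 0.09 after upper-quartile and equal-sum scaling.

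Heme and iron genes went both ways in these hemin-loaded cells. Of 23 that passed 6 were higher and 4 lower, and the median of 0.36 became negative after upper-quartile and equal-sum scaling. The ferritin genes were the most abundant transcripts of both libraries, with Ftl1 at 19784 FPKM without and 19695 with LPS and Fth1 at 19563 FPKM without and 29184 with LPS. Pseudogenes of both exist, so their values are uncertain. Hmox1, the gene of the heme-degrading oxygenase, was at 3396 FPKM without and 5423 with LPS (0.68). Besides Lcn2, at 2.48 FPKM without and 295 with LPS, several transport genes were higher: Slc39a14, which carries iron not bound to transferrin, was at 8.42 FPKM without and 86.9 with LPS, Slc11a2, which moves iron out of endosomes, at 29.7 FPKM without and 63.8 with LPS, and Slc25a37, the mitochondrial iron importer gene, at 12 FPKM without and 31.6 with LPS. Slc40a1, the gene of the iron exporter ferroportin, was lower, at 395 FPKM without and 46.7 with LPS (counting interval of the FPKM ratio 0.112 to 0.125). Steap3, an iron reductase gene, was at 13.1 FPKM without and 2.18 with LPS and Hfe, a regulator of hepcidin, at 32.7 FPKM without and 13.9 with LPS. Lrp1, which takes up heme bound to hemopexin, was at 59.3 FPKM without and 26.5 with LPS. Alas1, which starts heme synthesis and which heme is known to repress, was at 27.3 FPKM without and 98.4 with LPS. Tfrc, the transferrin receptor gene, was at 5.37 FPKM without and 11.6 with LPS, just under 2-fold, and Cp, whose ferroxidase assists export, at 5.82 FPKM without and 45.3 with LPS. As deposited, the exporter gene was thus lower while its helper Cp and 3 iron import genes were higher. After upper-quartile scaling Slc11a2 and Slc25a37 were under 2-fold, and the list had 4 higher and 5 lower.

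Of 34 antioxidant genes in the NRF2 list, all of which passed, 9 were higher and 1 lower, and the median of 0.21 became negative after upper-quartile and equal-sum scaling. Slc7a11, which imports cystine for glutathione, was at 1.53 FPKM without and 109 with LPS (5.45), Txnrd1 at 143 FPKM without and 504 with LPS and Prdx5 at 372 FPKM without and 1818 with LPS. Sod2, a mitochondrial enzyme gene also under NF-kB control, was at 48.5 FPKM without and 522 with LPS. Genes of the superoxide-producing oxidase were part of the list, with Cybb at 203 FPKM without and 735 with LPS and Ncf1 at 102 FPKM without and 305 with LPS. The textbook NRF2 genes Gclm, at 424 FPKM without and 394 with LPS, and Nqo1, at 13.3 FPKM without and 11.9 with LPS, were under 2-fold, and the growth inhibitor gene Osgin1 was lower, at 36.7 FPKM without and 17.6 with LPS. The most abundant member was Prdx1, at 4529 FPKM without and 6958 with LPS. Metallothioneins bind zinc: Mt2 was at 7.91 FPKM without and 305 with LPS and its neighbour Mt1 at 99.8 FPKM without and 322 with LPS, with 3 of 15 zinc genes higher and none lower. The list's median of 0.35 became negative with equal sums. Mt1 was more abundant than Mt2 without LPS and similar to it with LPS.

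Of 18 LXR target and lipid efflux genes 1 was higher and 7 lower, at a median of −0.08. The higher one was Ch25h, which makes the antiviral oxysterol 25-hydroxycholesterol, at 2.35 FPKM without and 43.0 with LPS. The lower ones included Nceh1, a cholesterol ester hydrolase gene (−2.28), Abcg1, a sterol exporter gene (−1.75), Soat1, which esterifies cholesterol (−1.25), and the lipid droplet gene Plin2, at 553 FPKM without and 266 with LPS. Abca1, the other main exporter gene, was at 12.6 FPKM without and 21.4 with LPS, under 2-fold. Apoe, the most abundant, was at 2555 FPKM without and 2489.6 with LPS. Among sterol and fatty acid synthesis genes 3 of 18 were lower and none higher, led by Sc4mol, a sterol methyl oxidase gene now called Msmo1, at 29.5 FPKM without and 11.1 with LPS, and 7 were lower with equal sums. Of 11 genes of alternative activation, a state driven by interleukin 4, 5 were higher and 1 lower at a median of 0.77, among them Il4ra, the receptor gene, at 21.1 FPKM without and 98.7 with LPS.

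Surface receptors for dead cells and debris gave 4 higher and 4 lower of 28, at a median of −0.14. Over all genes 12.3% were higher, a share near that of these receptors, and 6.50% were lower. Marco, a scavenger receptor gene, was at 1.76 FPKM without and 10.6 with LPS and the integrin gene Itgav at 24.4 FPKM without and 82.3 with LPS. Lower were Mertk, which recognises phosphatidylserine, at 18.5 FPKM without and 6.85 with LPS, Stab1, at 48.0 FPKM without and 14.5 with LPS, Cd300a (−1.65) and Lrp1 (−1.13). Tyrobp was the most abundant. Among Fc, Siglec and CD300 receptors, 4 of 19 were higher and 2 lower, with a median of 0.04 that became negative after upper-quartile and equal-sum scaling. Fcgr2b, the inhibitory Fc receptor gene, was at 15.3 FPKM without and 535 with LPS (5.04), while the activating receptor genes Fcgr1, at 84.5 FPKM without and 51.2 with LPS, Fcgr3, at 201 FPKM without and 157 with LPS, and Fcgr4, at 45.3 FPKM without and 51.9 with LPS, were under 2-fold. Cd300lb, an activating CD300 receptor gene, was at 102 FPKM without and 7.62 with LPS (−3.58) and Cd300e, another, at 1.47 FPKM without and 11.3 with LPS.

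Receptors for nucleotides, lipids and metabolites moved in both directions. Of 21 that passed 8 were higher and 7 lower, and the median of 0.22 became negative after upper-quartile and equal-sum scaling. The adenosine receptor genes Adora2a, at 0.440 FPKM without and 43.1 with LPS, and Adora2b, at 2.85 FPKM without and 68.5 with LPS, were higher, as were the fatty acid receptor gene Gpr84, at 11.6 FPKM without and 365 with LPS, and the niacin receptor gene Niacr1, now called Hcar2, at 1.47 FPKM without and 79.4 with LPS. Lower were Gpr183, a receptor of oxysterols, at 10.8 FPKM without and 0.172 with LPS, Lpar6 (−3.16), the proton sensor gene Gpr65 (−2.07), and S1pr2 (−1.89). P2rx7, the ATP-gated channel that triggers the Nlrp3 inflammasome, was at 15.2 FPKM without and 3.47 with LPS, whereas Nlrp3 had a ratio of 3.58.

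Integrins and adhesion genes were higher in 11 of 25 cases and lower in 3, and after upper-quartile scaling in 7 and 4. Their median was 0.38, and it was negative after upper-quartile and equal-sum scaling. Itgal, the integrin partner chain that binds Icam1, was at 10.6 FPKM without and 96.5 with LPS, and Cd44, the hyaluronan receptor gene, at 77.9 FPKM without and 266 with LPS. The neuropilin genes had opposite signs, with Nrp2 at 78.5 FPKM without and 204 with LPS and Nrp1 at 42.1 FPKM without and 15.8 with LPS. Itga6, a laminin receptor chain, was at 12.8 FPKM without and 2.34 with LPS.

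Of 31 apoptosis and survival genes 13 were higher and 3 lower, at a median of 0.65. The Bcl2a1 genes were higher, with Bcl2a1b at 41.2 FPKM without and 1079 with LPS, although these near-identical paralogs cannot be separated with confidence. Cflar, which encodes the caspase 8 inhibitor cFLIP, was at 15.8 FPKM without and 275 with LPS, Birc3 at 19.5 FPKM without and 159 with LPS and the kinase gene Pim1 at 15.9 FPKM without and 372 with LPS. Among the lower genes were Casp9 (−1.41) and Casp2 (−1.18), which encode initiator caspases. Genes that promote death were also among the higher ones, with the death receptor gene Fas at 11.4 FPKM without and 45.9 with LPS and Bcl2l11, which encodes BIM, at 9.95 FPKM without and 24.3 with LPS.

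Among 23 genes of the integrated stress response, p53 targets and sestrins, 7 were higher and 2 lower, with a median of 0.35 that became negative after upper-quartile and equal-sum scaling. Ppp1r15a, which restores translation, was at 13.2 FPKM without and 122 with LPS, and Cdkn1a, the gene of the cell cycle inhibitor p21, at 160.02 FPKM without and 658 with LPS. Sesn1, a sestrin that restrains mTORC1, was at 17.7 FPKM without and 1.01 with LPS (−3.21). Of 16 heat shock genes 2 were higher as deposited, near the 12.3% of all genes, and none after upper-quartile scaling. Their median was 0.48. That median was negative with equal sums, and the most abundant member, Hspa8, was at 1083 FPKM without and 1895 with LPS.

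Cell cycle genes had the lowest median of the lists, −0.75, with 5 higher and 6 lower of 22 that passed, and 26 others under the minimum. Ccnd1, the gene of cyclin D1, was at 62.7 FPKM without and 5.68 with LPS (−3.25), and the replication licensing genes Mcm2 (−1.61), Mcm6 (−1.14), Cdt1 (−1.47) and Gins2 (−1.11) were lower. Higher were the proliferation marker Mki67, at 0.862 FPKM without and 6.64 with LPS, and Ccne1, at 2.09 FPKM without and 7.98 with LPS, both low, and the inhibitor gene Cdkn1b, at 7.77 FPKM without and 23 with LPS. After upper-quartile scaling 13 were lower and 3 higher. Pcna, the most abundant, was at 246 FPKM without and 188 with LPS.

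Of 50 chromatin modifier genes 5 were higher and 3 lower as deposited, shares near the 12.3% and 6.50% of all genes. The counts were 3 and 8 after upper-quartile scaling and 2 and 11 with equal sums, and the median of 0.18 became negative in both. Kdm6b, a demethylase of histone H3 lysine 27, was at 1.93 FPKM without and 15 with LPS, and Tet2, which oxidises methylcytosine, at 2.82 FPKM without and 20.6 with LPS. The DNA methyltransferase genes Dnmt1, at 18.1 FPKM without and 3.91 with LPS, and Dnmt3a (−1.26) were lower, as was the histone deacetylase gene Hdac5, at 21.2 FPKM without and 3.47 with LPS. Tet3, a relative of Tet2, was at 6.14 FPKM without and 4.28 with LPS, under 2-fold.

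Of 43 genes of the lysosome list 12 lay above 0, 1 was higher, against 12.3% of all genes, and 4 were lower, near the 6.50% of all genes. Their median was −0.32 against 0.11 for all genes, and 9 were lower after upper-quartile scaling. Ctsc, a protease that activates other proteases, was the higher one, at 120.3 FPKM without and 726 with LPS. The lower ones were the regulator gene Tfeb (−2.11), the sulfatase gene Sgsh (−1.79), Manba (−1.20) and Gusb (−1.06). Gusb is also used as a reference gene, and it was among the 2 of 18 housekeeping genes called lower, with none higher. The remaining 16, including Actb, at 1483 FPKM without and 1948 with LPS, and Hprt, at 134 FPKM without and 144 with LPS, were under 2-fold, and the median of 0.27 became negative after upper-quartile and equal-sum scaling.

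**Figure D3:**
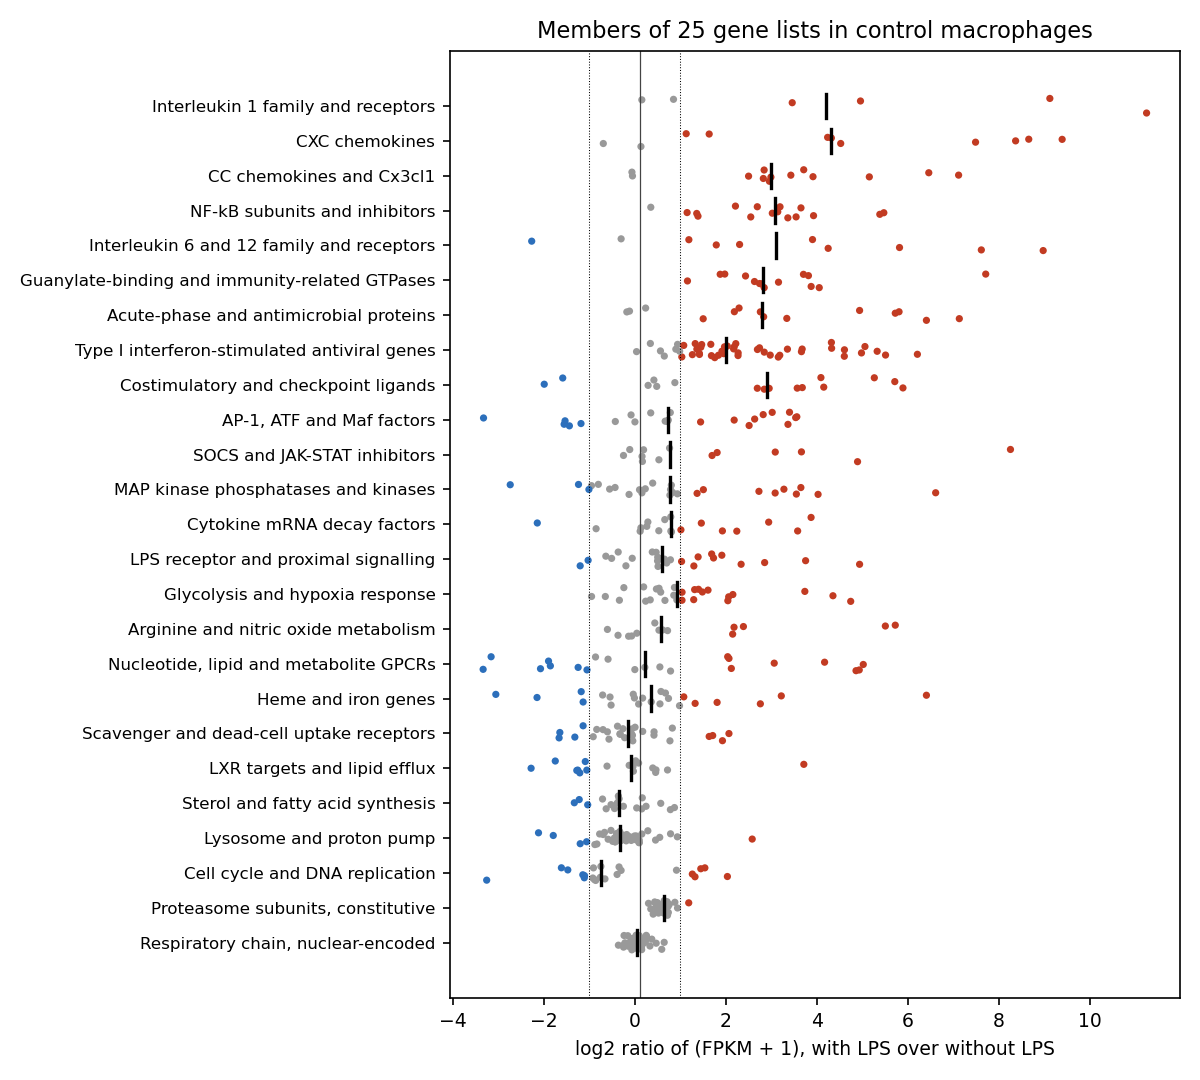
Log2 ratios of (FPKM + 1), with LPS over without LPS, of the members of 25 gene lists in control macrophages, 1 library a side. Each point is a gene (red at least 2-fold higher, blue at least 2-fold lower, grey neither), black bars are list medians, the thin line is the median of all 8050 genes (0.11) and dotted lines mark 2-fold. List medians run from 4.32 for CXC chemokines to −0.75 for cell cycle genes, and the respiratory chain genes all lie between the dotted lines.

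Families were also taken whole by symbol. Of 136 solute carrier genes that passed 18 were higher, near the 12.3% of all genes, and 17 were lower, against 6.50% of all genes, with 12 and 27 after upper-quartile scaling. The extremes were the amino acid carriers Slc7a2 (5.51) and Slc7a11 (5.45) and the iron exporter Slc40a1 (−3.05). Of 101 Zfp zinc finger genes 6 were higher and 4 lower, of 107 Tmem genes 8 and 12, and of 80 ribosomal protein genes none and 1. After upper-quartile scaling the Zfp genes had 4 higher and 13 lower and the Tmem genes 4 and 24. Trim genes, many of them interferon-driven ubiquitin ligases, were higher in 8 of 22 cases and lower in 2, Rnf ligase genes in 9 of 49 with none lower, and Ube2 conjugating enzyme genes in 5 of 29 with none lower. After upper-quartile scaling the Trim genes had 6 higher and 3 lower, the Rnf genes 4 and 5, and the Ube2 genes 2 and none. Arhg genes, many of which regulate small GTPases, were lower in 6 of 29 cases and higher in 2, with Arhgap25 (−2.74) and Arhgap19 (−2.64) lowest. Rab GTPase and effector genes held 6 higher, near the 12.3% of all genes, and 4 lower of 40, from Rab11fip1 (4.40) to Rab3il1 (−2.90). After upper-quartile scaling the Arhg genes had 1 higher and 10 lower and the Rab genes 3 and 6.

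The lowest ratios belonged to genes of several kinds. Arl11, a small GTPase gene, was at 38.1 FPKM without and 2.07 with LPS (−3.67), (counting interval on the FPKM ratio, 0.0384 to 0.0734). Transcription regulators among the 40 lowest included Lyl1, Hhex, Irf2bp2 and Tsc22d3, the last of which encodes the glucocorticoid-induced leucine zipper and was at 18.3 FPKM without and 1.39 with LPS. Signalling genes among them were Dgkz, at 69.2 FPKM without and 10.9 with LPS, Cerk, a lipid kinase gene, at 38.2 FPKM without and 5.11 with LPS, and Rgs2, at 48.2 FPKM without and 5.96 with LPS. Gmnn, which encodes the replication inhibitor geminin, was at 25 FPKM without and 2.94 with LPS, and Lfng, which modifies Notch, at 38.8 FPKM without and 4.09 with LPS. Slc40a1 was the most abundant of the 40 without LPS. Fewer cells of a type and less RNA per cell cannot be told apart in these bulk libraries.

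Arl11 lies on chromosome 14 from 61309753 to 61311936 (GRCm38). Its promoter, from RefSeq for GRCm38.p6 (chr14:61309503-61309752, plus strand), is shown as that of the gene with the lowest ratio. Capitals mark the C/EBP motif TTGCNNAA, found on the opposite strand at −211 to −204.
Arl11: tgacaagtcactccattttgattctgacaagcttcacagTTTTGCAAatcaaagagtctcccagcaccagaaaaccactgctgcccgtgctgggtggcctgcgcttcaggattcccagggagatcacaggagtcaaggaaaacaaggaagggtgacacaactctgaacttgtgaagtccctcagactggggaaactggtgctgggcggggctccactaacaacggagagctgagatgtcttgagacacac

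**Figure D4:**
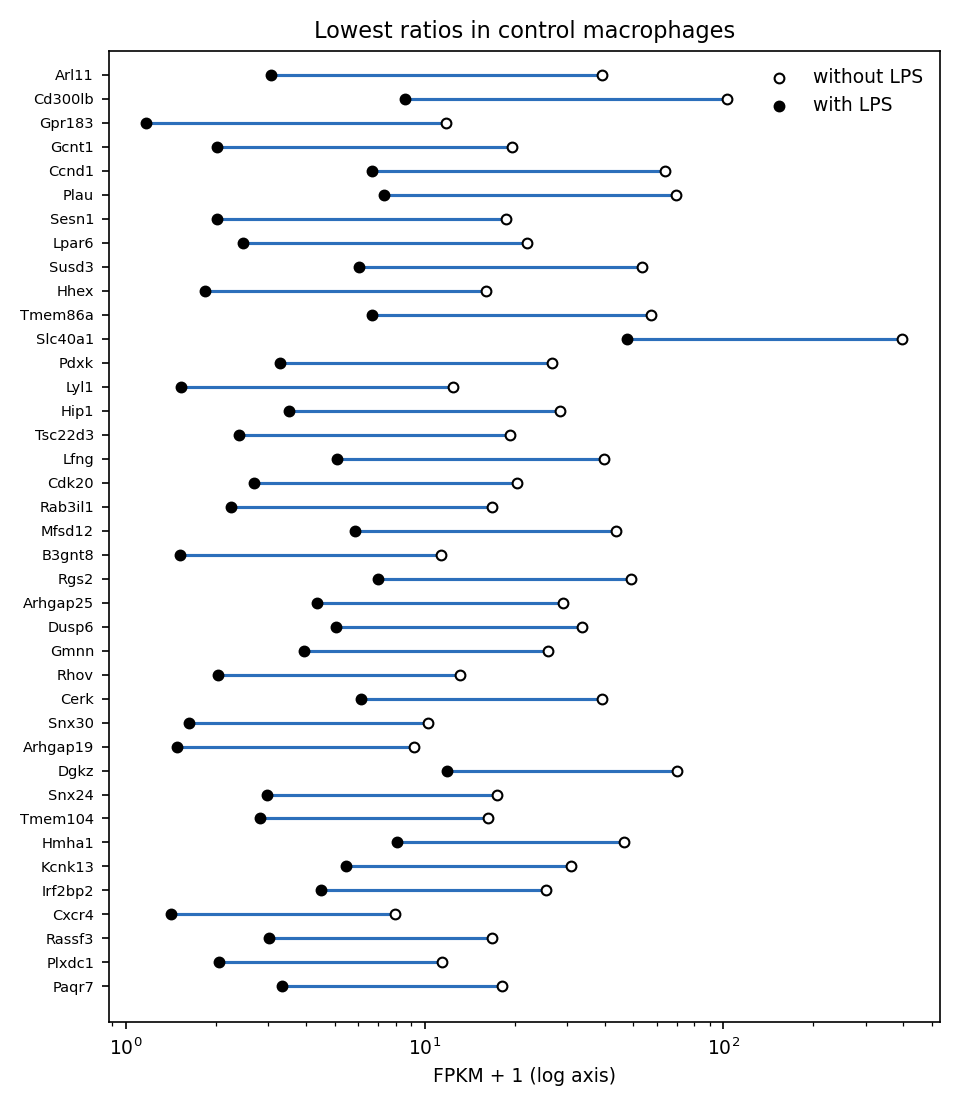
FPKM + 1 (log axis) of named genes with the lowest ratios in control macrophages, without LPS (open circles) and with LPS (filled circles), 1 library each. Every gene has its filled circle to the left by at least 4-fold, and Slc40a1 starts highest, at 395 FPKM.

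Genes that textbooks place in either wave of the TLR4 response were mostly higher at 4 h. Of 24 primary-response genes 23 were higher, with a median of 3.90, and Fos was lower. All 11 secondary-response genes, which need chromatin remodelling or new proteins, were higher (median 4.63), among them Lipg, at 0.107 FPKM without and 25.8 with LPS. These lists were chosen with the results in view, so their high shares may reflect that choice. A single time point gives no order between them and cannot show waves.

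Promoter letters differed by fold class. Of 7519 named genes 4582 (60.9%) had exactly 1 promoter (250 bases before to 50 after the start) in the RefSeq table for GRCm38.p6, and each motif was searched on both strands. Among genes at least 16-fold higher, 12 of 54 promoters (22.2%) held the NF-kB consensus, against 19.7% of those 4-fold to 16-fold higher, 10.1% of those 2-fold to 4-fold higher and 9.73% of those neither. It was found in 10.2% of all compared and 8.01% of the whole table. The interferon response motif, TTTC repeated after any 2 bases, followed the same order, at 24.1%, 9.55% and 7.77% against 2.90% of neither, 3.71% of all compared and 3.58% of the table. Of the 38 promoters of genes at least 4-fold lower, none held the interferon response motif and 4 (10.5%) held the NF-kB consensus. The 2 motifs stood together in 3 of the 54, 5.56%, and in 0.502% of all compared. The AP-1 motif TGANTCA was in 20.4%, 6.74% and 6.76% of the 3 higher classes, 4.78% of all compared and 7.98% of the table.

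Core promoter letters differed as well. TATAAA, as in the Il1b promoter, was in 22.2%, 14.6% and 8.45% of the 3 higher classes from the top, in 6.36% of neither, in 7.07% of all compared and in 14.8% of the table. Among lower genes it was in 6 of 38 promoters (15.8%) of those at least 4-fold lower and in 6.25% of those 2-fold to 4-fold lower. A CpG content of at least 0.6 of that predicted from base composition, the mark of CpG-rich promoters, was met by 27.8%, 53.9% and 75% of the higher classes, by 82.4% of neither, and by 35.7% of the whole table. It was met by 65.8% of genes at least 4-fold lower and 72.8% of those 2-fold to 4-fold lower, against 79.6% of all compared. The median GC content was 51.3% in the top class against 61.3% over all compared. CACGTG, the E-box, was in 8 of 38 promoters (21.1%) of genes at least 4-fold lower and in 11.2% of all compared. These shares are descriptions of letters in a window, from small classes at both ends. Motifs can overlap one another and base composition differs between classes.

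**Figure D5:**
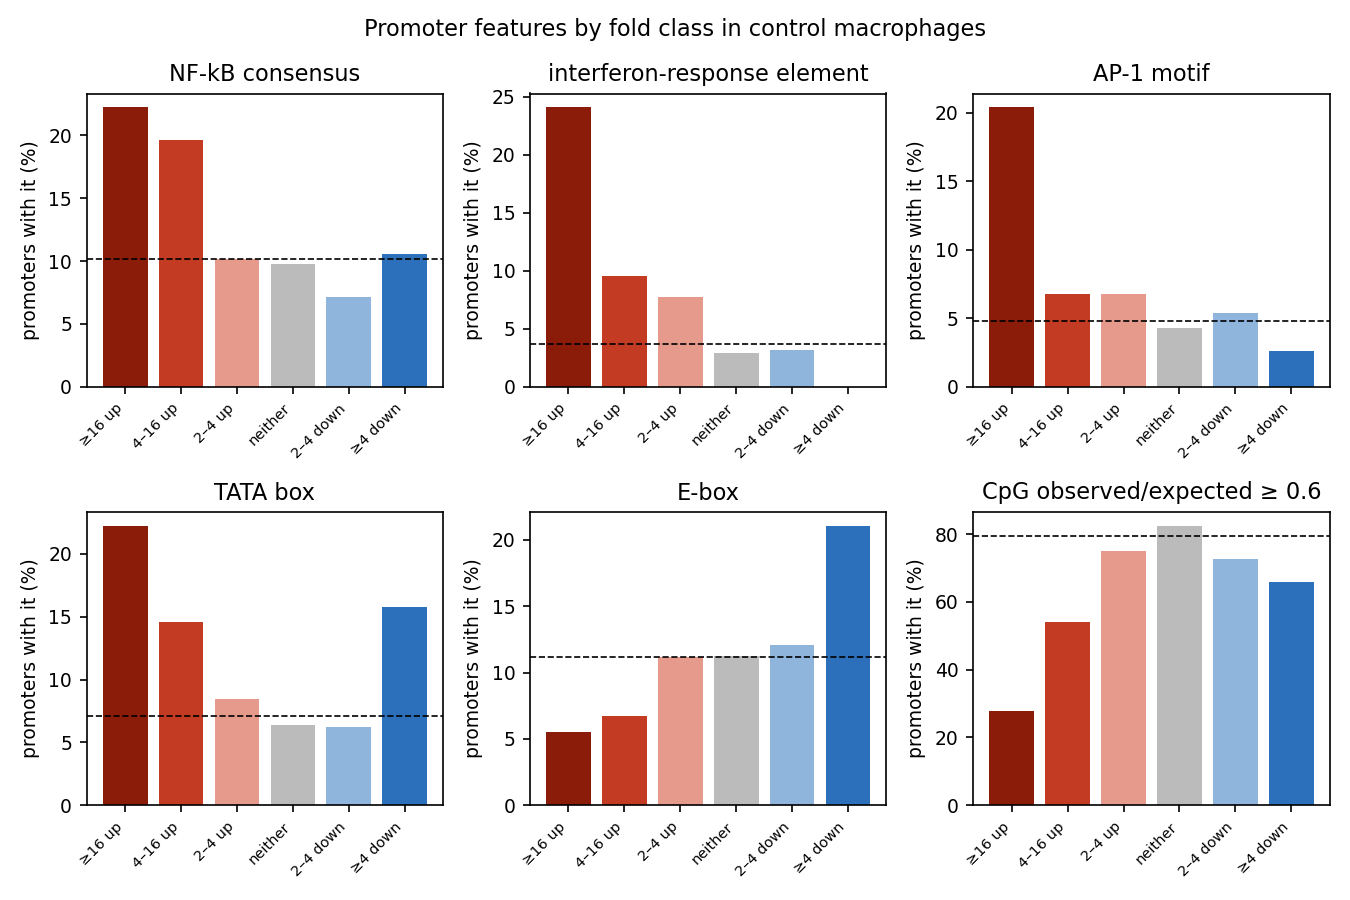
Share of RefSeq promoters (percent, bars from 0) that hold each of 5 motifs or a high CpG ratio, by fold class of the control LPS ratio (54, 178, 296, 3792, 224 and 38 promoters from left to right). The dashed line is the share over all 4582 promoters compared. The NF-kB, interferon response, AP-1 and TATA shares are tallest in the class at least 16-fold higher, where the CpG share is lowest.

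Higher genes lay beside one another in the genome. Of 914 higher genes placed on GRCm38, 388 (42.5%) had a higher gene as the next compared gene on either side, against 22.2% of all compared genes. For lower genes the shares were 22.1% and 11.8%. Taking the next annotated gene, compared or not, the shares were 12.1% and 5.22% for higher genes and 6.55% and 2.73% for lower ones. The longest run held 8 higher genes on chromosome 1 from 173566280 to 174031755, Pydc4, Pyhin1, Pydc3, Ifi204, Mndal, Mnda, Ifi203 and Ifi205. Other long runs also held families: Gbp genes beside other genes on chromosomes 3 and 5, 6 Slfn genes on chromosome 11 from 82951349 to 83190216, and on chromosome 5 Cxcl5, Pf4, Cxcl3, Cxcl1 and Cxcl2 from 90759298 to 90905938. Pf4, the platelet factor 4 gene in the middle of that run, was at 327 FPKM without and 718 with LPS, a ratio of only 1.13. Shorter runs also joined relatives to other genes. Such were Il19 and Il10 beside Mapkapk2 on chromosome 1, where ratios ran from 3.28 to 5.21, and Parp14 and Parp9 with Dirc2 and Dtx3l on chromosome 16. Related neighbours share sequence, and the part of shared fragments in these runs was not tested.

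The knockout pair, which shares no library with the control pair, gave the same call for most members. Of the 915 named higher genes 856 were also higher there and 913 had ratios above 0, and of the 460 lower ones 386 were also lower and all 460 were below 0. In that pair 13.7% of 8098 genes were higher and 7.74% lower. Il1b had a ratio of 10.12 there against 11.25, Tnfaip3 5.51 against 5.48 and Slc40a1 −3.10 against −3.05. Differences between the pairs rest on 1 library in each of 4 groups and were not tested.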

How the data were processed

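RNA from 4 libraries of cultured bone marrow macrophages (1 per group) was extracted with RNeasy kits and made into stranded TruSeq mRNA libraries, per the labels' protocols. The submitters' processing notes name the mm10 build, Cuffnorm 2.2.1, TopHat2 2.0.13, SAMtools 0.1.19 and Bowtie2 2.2.3, with no annotation stated there. The deposited values are FPKM per gene, with 1 file a sample, and no counts were used here.

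The log2 ratio of (FPKM + 1) was taken for genes at 5 FPKM or more in 1 of the 2 control libraries, and genes at least 2-fold apart were called. Fragments per FPKM were estimated from the spacing of values under 0.15 FPKM in 529 genes with 1 transcript, with GENCODE vM21 lengths less 210 bases. Set to 100% for control cells without LPS, depth came to 67.8% with LPS, and to 82.8% and 51.6% for knockout cells without and with LPS. The fold calls were tested on simulated libraries and the motif search on a made-up sequence. The depth estimate, counting intervals, scalings and neighbour shares were not tested in this way. Promoters came from RefSeq (GRCm38.p6) and gene positions from GENCODE vM21 (GRCm38). Python 3.11.15, pandas 2.3.3, numpy 2.4.6, SciPy 1.17.1 and matplotlib 3.10.9 were used.

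The comparison, 62 gene lists (1360 genes, 36 not found under that symbol) and 19 symbol families were chosen with earlier results of these data known. Genes are named by rule: the 40 highest and 40 lowest ratios, up to 8 of each list (6 of a family) and its most abundant member, the 10 largest gains and losses and the 10 highest levels in FPKM, markers, housekeeping genes, and genomic runs of 3 or more. Abca1, Aldoa, Alox5ap, Apoe, Bcl2l11, C1qb, Casp2, Casp9, Ccl6, Ccl8, Cd180, Cd80, Cd86, Cebpb, Clec4d, Ctsl, Cyld, Dusp3, Fcgr3, Fcgr4, Fli1, Fos, Fosl1, Gadd45g, Gclm, Gins2, Gpr65, Havcr2, Id1, Il6st, Irf7, Irgm1, Jun, Junb, Klf10, Klf2, Klf6, Ly96, Lyz1, Maf, Mcm6, Myc, Ndufs5, Nqo1, Nrp1, Nrp2, Osgin1, P2rx7, Pcna, Pfkp, Pycard, Rab11fip1, Rxra, S100a9, S1pr2, Slc11a2, Socs4, Socs5, Socs6, Tab1, Tet3, Tfe3, Tgfb1, Tgfb3, Tgfbr1, Tgfbr2, Ticam1, Tlr4, Tnfrsf1a, Tnfrsf21 and Tnfrsf23 were named for their role after their values were seen. Alternatives were pseudocounts of 0.1 and 5 FPKM, minimums of 1 and 20 FPKM or none, median-ratio and upper-quartile scaling, a 4-fold threshold, a promoter window before the start only, and annotated neighbours. Equal-sum scaling was chosen after seeing the data. Some genes are not reported here.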

Additional observations from a re-analysis of the deposited data

Results flagged for a closer look

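Among named genes called in control cells, Ass1 and Akr1b3 were at least 2-fold apart in the opposite direction in knockout cells, where Akr1b3 did not reach the minimum of 5 FPKM. Ass1, which encodes argininosuccinate synthase of the arginine cycle, had a ratio of 2.18 in control cells (2.56 FPKM without LPS and 15.2 with LPS) and −1.0 in knockout cells (9.21 and 4.10). Akr1b3, an aldose reductase gene, had a ratio of 2.64 in control cells, where it was listed at 0 without LPS and at 5.23 FPKM with LPS, and −1.71 in knockout cells, where it was at 2.26 FPKM without LPS and listed at 0 with LPS. Each group was 1 library, and the difference between genotypes was not tested.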

How the results depend on the processing

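The count of higher genes (992) was 578 with equal-sum scaling and 424 at 4-fold, and stayed within 1.5 times in the other settings. The count of lower genes (523) was 229 with a pseudocount of 5 FPKM, 183 with a minimum of 20 FPKM, 1138 with upper-quartile scaling, 1600 with equal-sum scaling and 94 at 4-fold. The share of called genes with a called neighbour, taken by the next annotated gene, was 12.1% for higher and 6.55% for lower genes, since fewer neighbours were then compared. Of 324 called genes named by rule, which picks large ratios, 295 were still called with a pseudocount of 5 FPKM. After upper-quartile scaling 305 of 323 were, and after equal-sum scaling 294 of 323. None changed sign, but this was fixed beforehand: pseudocounts and minimums cannot change a sign, and called ratios exceed the shifts of the scalings. Why the authors' scaling and the other scalings differ was not tested. Depth limits genes under 1 FPKM in either library, whose ratios rest on few fragments. No paired analysis was possible because each group held 1 library.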
